A study of Mus musculus with 8 samples.

Results

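Collagen genes were examined in mouse embryos at E9.5, in the posterior part of the second heart field (pSHF), in pools that carried 1 mutant Tbx5 allele (Tbx5-/+) and in wild-type pools (Tbx5 WT). Every spot other than a control whose gene name has the form of a collagen chain (Col, a type number, a, a chain number) was taken, whatever its value. This gave 41 genes of 27827 gene names, 80 probes of 41174 and 98 spots per array of 43379. Each of the 8 arrays held RNA of 1 pool of embryos, 4 Tbx5-/+ and 4 wild-type, numbered 1, 5, 6 and 7 in both groups. The embryos came from Tbx5 mice kept on a mixed background, both groups came from females given gonadotropins before mating, and the tissue was cut between the outflow and inflow tracts after the neural tube had been taken off through the foregut. The Tbx5 mutation is carried in every cell rather than in a chosen cell type, and the number of embryos in a pool is not given in the labels. The labels call the pools independent but do not name litters, so p-values measure the spread between these pools.

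Collagens are the main structural proteins of extracellular matrix. Each molecule is a trimer of alpha chains wound into a helix that needs a glycine at regular steps along each chain, and the chains of a trimer may come from 1 gene or from several. Fibrillar collagens form the fibres of mesenchyme, type IV collagen is the network of basement membranes, type VI collagen forms beaded filaments around cells, and FACIT collagens sit on the surface of fibrils.

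The helix can be read from some of the probes themselves. A probe was searched on its own strand, the transcript's sense strand, for 4 glycine codons spaced 9 bases apart (GGNNNNNNNGGNNNNNNNGGNNNNNNNGG), which is 1 glycine in every 3 codons. The repeat was in 3 of the 80 collagen probes (3.75%) and in 14 of all 41174 probes (0.034%). These 3 are shown because they hold the sequence that defines the family, with the glycine codons in capitals.
Col5a3 probe A_52_P503796: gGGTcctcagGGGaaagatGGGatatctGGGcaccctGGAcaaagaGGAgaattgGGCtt
Col5a1 probe A_52_P237371: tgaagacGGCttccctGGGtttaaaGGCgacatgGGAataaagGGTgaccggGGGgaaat
Col11a2 probe A_52_P563285: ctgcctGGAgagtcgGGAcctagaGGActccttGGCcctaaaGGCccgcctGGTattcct
None of these 3 was bright enough to be tested, and all 44 collagen probes that were tested lacked the repeat. The tested probes printed next carry results given further on, since each is the probe of its gene that lies farther upstream along the transcript. They hold no run of 4 and so no capitals, although the Col13a1 probe holds 3 glycine codons at that spacing.
Col1a1 probe A_51_P377094: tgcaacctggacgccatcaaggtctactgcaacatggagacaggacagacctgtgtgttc
Col4a1 probe A_52_P518827: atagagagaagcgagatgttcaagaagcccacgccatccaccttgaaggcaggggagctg
Col4a2 probe A_52_P496142: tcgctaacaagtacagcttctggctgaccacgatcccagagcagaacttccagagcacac
Col18a1 probe A_52_P261846: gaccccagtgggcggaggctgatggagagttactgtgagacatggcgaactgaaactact
Col27a1 probe A_52_P129388: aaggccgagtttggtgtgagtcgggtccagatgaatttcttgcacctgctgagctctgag
Col13a1 probe A_52_P147487: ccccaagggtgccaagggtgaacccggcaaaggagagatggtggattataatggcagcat
In the mm9 coordinates of the scanner files, the Col1a1 probe lies at chr11:94812052-94812111 on the plus strand and was free of stop codons in all 3 reading frames. The Col4a1 probe spans 1835 bases of the genome (chr8:11199846-11201680, minus strand), the Col27a1 probe 1434 bases (chr4:62990939-62992372, plus strand) and the Col13a1 probe 370 bases (chr10:61330216-61330585, minus strand), more than their 60 bases, so these cross a splice junction. The Col4a2 probe (chr8:11448180-11448239, plus strand) and the Col18a1 probe (chr10:76516065-76516124, minus strand) each had an open frame. No annotation of that build was used, so exons and UTRs were not assigned.

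The share of spots well above background was 45% to 52.8% on Tbx5-/+ arrays and 50.9% to 63.6% on wild-type arrays. The leading principal component over the probes tested held 56.9% of the variance, and on it Tbx5-/+ pool 1 (-37.2) lay among the wild-type arrays (-52.4 to -10) and apart from Tbx5-/+ pools 5, 6 and 7 (26.1 to 112.1). For many collagen genes the difference without that pool is therefore given too. Tbx5 itself (probe A_52_P523712) was lower by 2.12 ± 0.32 (SE, log2) in Tbx5-/+, every Tbx5-/+ value was lower than every wild-type value, and the adjusted p was 0.0919 in limma, 0.0335 with the embryo number as a block, 0.0118 without Tbx5-/+ pool 1 and 0.0428 without wild-type pool 1. A second Tbx5 probe, A_51_P469338, differed by -0.15. All values below are intensities after variance stabilizing normalization (VSN) on the log2 scale, differences are Tbx5-/+ minus wild-type, and since probes bind unequally a value is compared between arrays and not between genes. The median difference over all 20028 probes tested was -0.19 under VSN, 0.10 with processed signals scaled to the 75th percentile, -0.02 after quantile normalization and 0.13 with arrays centred on their medians, so a collagen difference is read against that shift.

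Of the 41 collagen genes, 33 were tested with 44 probes, a probe being tested where 1 group or both had it well above background on each of 4 arrays. No collagen gene passed an adjusted p of 0.05 in limma (0 of 33, with 0% of all 13949 gene names tested passing it), and the smallest adjusted p of a collagen probe was 0.131. At an unadjusted p under 0.05, 9 of the 33 genes were lower in at least 1 probe (27.3%, with 22.6% of all gene names) and 0 were higher (4.57% of all gene names). The 9 were Col1a1, Col1a2, Col5a2, Col27a1, Col4a1, Col6a1, Col6a2, Col8a1 and Col17a1. Scaled to the 75th percentile the genes at that level were 4 lower and 1 higher (10.9% and 19.8% of all gene names), centred on the array medians 2 lower and 1 higher (8.46% and 20.6%), and after quantile normalization 5 lower and 0 higher (11.9% and 12.2%). With 1 pool left out the genes lower at that level were 4 (without wild-type pool 7, 12.8% of all gene names) to 13 (without Tbx5-/+ pool 5, 23.2%), and without Tbx5-/+ pool 1 they were 12 lower and 3 higher (32% and 18.8%). With the embryo number as a block they were 14 lower and 1 higher (34.7% and 7.05%), and with array weights 20 lower and 5 higher (42.8% and 24.8%). Col1a1, on its upstream probe, and Col6a1 were lower at that level under VSN and under each of those 3 scalings.

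By its brightest tested probe, a collagen gene differed by -1.59 to 0.59, with a median of -0.31 where the median of all gene names was -0.13. The difference was below 0 in 26 of 33 genes (61.1% of all gene names), a count that was 20 with the 75th percentile (37.4%), 22 after quantile normalization (47.7%) and 16 with centred arrays (34.8%). Without Tbx5-/+ pool 1 it was 20 (54.5%), as Col3a1 (0.42), Col16a1 (0.28), Col24a1 (0.16), Col4a6 (0.12), Col14a1 (0.05) and Col5a3 (0.01) then lay above 0. The Tbx5-/+ arrays were all lower than the wild-type arrays for 1 of 33 brightest probes, that of Col17a1 (7.68% of all gene names), and all higher for 0 (0.918%). In bulk tissue, fewer cells of a type and less RNA per cell cannot be told apart.

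**Figure D1:**
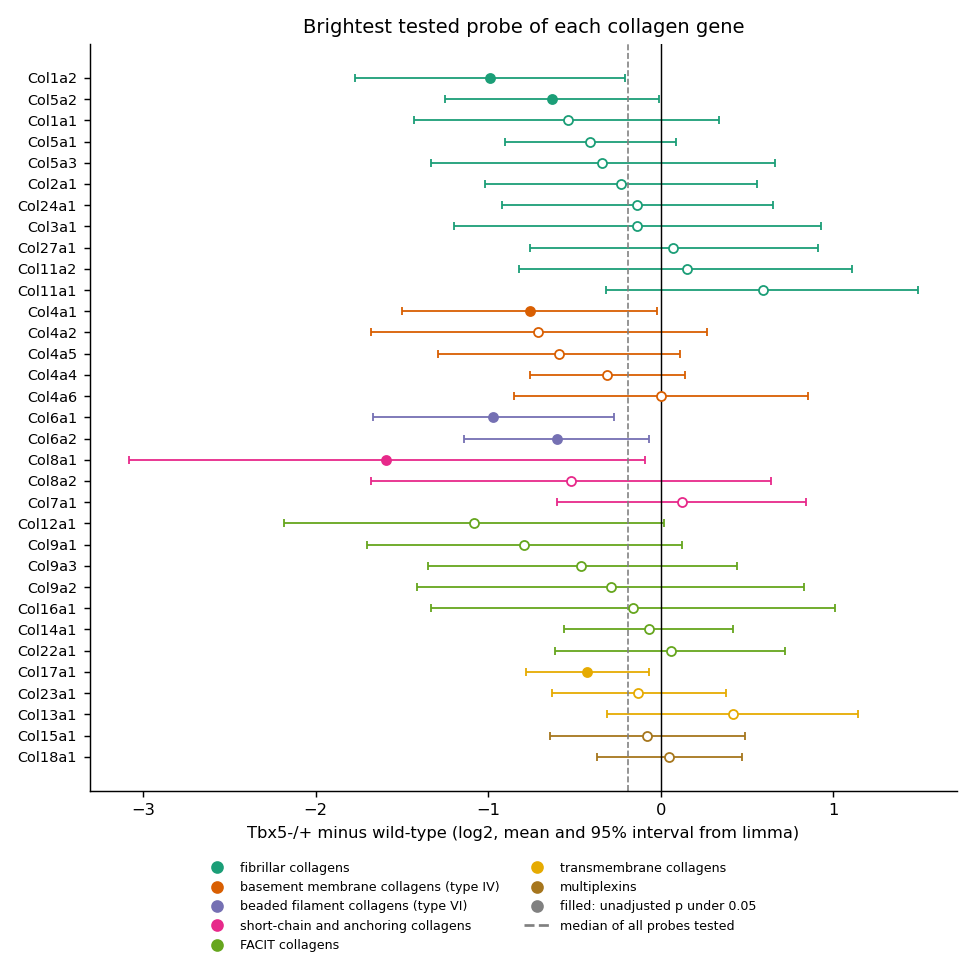
Differences (Tbx5-/+ minus wild-type, log2, x axis) of the brightest tested probe of each of the 33 collagen genes (y axis), coloured by class, with limma 95% intervals from 4 arrays per group; filled points have an unadjusted p under 0.05 and the dashed line is the median of all probes tested (-0.19). Most points lie left of 0, from -1.59 for Col8a1 to 0.59 for Col11a1, and most intervals include 0.

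With the embryo number as a block, which compares pools of the same number, 3 collagen genes passed and all 3 were lower: Col1a1, Col1a2 and Col6a1, each at an adjusted p of 0.0346 (9.09% of 33, where 13.5% of all gene names passed lower and 0.538% higher). Without Tbx5-/+ pool 1 and without the block, another 3 passed, all lower: Col27a1 (adjusted p 0.0127), Col8a1 (0.0163) and Col13a1 on its upstream probe (0.0432), where 15% of all gene names passed lower and 9.33% higher. Both shares of collagen genes were below those of all gene names.

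Type I collagen, the commonest fibrillar collagen of mesenchyme, is built from the chains of Col1a1 and Col1a2. Values of the upstream Col1a1 probe were 9.26, 10.59, 8.20 and 9.74 in Tbx5-/+ pools 1, 5, 6 and 7 and 10.84, 11.16, 10.69 and 11.19 in the wild-type pools of the same numbers. All 4 Tbx5-/+ values were below all wild-type values, with pool 6 the lowest. Its means were 9.45 ± 1.00 and 10.97 ± 0.25 (SD, n = 4 each). The difference of -1.52 ± 0.43 (SE), 2.88-fold lower, had an adjusted p of 0.131 in limma, 0.0346 with the block and 0.0623 without Tbx5-/+ pool 1. The brightest Col1a1 probe (A_52_P525107, chr11:94813075-94813134, 1023 bases downstream) gave 12.45, 14.35, 13.75 and 14.31 in Tbx5-/+ and 13.85, 14.52, 14.32 and 14.33 in wild-type. Here Tbx5-/+ pools 5 and 7 lay within the wild-type range, and the difference was -0.54 ± 0.40 (adjusted p 0.406), or -0.12 without pool 1, so the 2 probes of the gene gave different sizes.

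Col1a2 (A_51_P182303, chr6:4490619-4490678, plus strand) gave 12.85, 14.23, 12.82 and 13.59 in Tbx5-/+ and 13.96, 14.76, 14.03 and 14.69 in wild-type. Each Tbx5-/+ pool was below the wild-type pool of its number, by 0.53 to 1.21, while pool 5 overlapped the lower wild-type values. The means were 13.37 ± 0.68 and 14.36 ± 0.42 (SD, n = 4 each). The difference was -0.99 ± 0.35, 1.98-fold lower, with an adjusted p of 0.188 in limma and 0.0346 with the block.

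Of the genes called with the block, Col1a2 and Col6a1 are in the promoter table used here, and the 250 bases before their starts are shown as the upstream sequence of those 2 chains (RefSeq, GRCm38.p6: Col1a2 at chr6:4505368-4505617 on the plus strand and Col6a1 at chr10:76726045-76726294 on the minus strand). Capitals mark CCAAT on either strand.
Col1a2 upstream: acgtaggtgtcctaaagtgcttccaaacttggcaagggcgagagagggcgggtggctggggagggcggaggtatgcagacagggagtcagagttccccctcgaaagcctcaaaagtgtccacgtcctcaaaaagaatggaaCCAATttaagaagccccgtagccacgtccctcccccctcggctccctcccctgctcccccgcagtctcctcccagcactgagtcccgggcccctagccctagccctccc
Col6a1 upstream: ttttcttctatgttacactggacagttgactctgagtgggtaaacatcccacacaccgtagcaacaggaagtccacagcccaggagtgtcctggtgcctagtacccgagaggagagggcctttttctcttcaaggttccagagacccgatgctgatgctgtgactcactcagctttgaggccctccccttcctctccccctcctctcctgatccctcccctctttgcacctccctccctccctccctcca
Col1a2 held 1 CCAAT, starting 109 bases before the start, and GGGCGG at 2 places, while Col6a1 held none of the 4 motifs searched. On both strands of the 250 bases, CCAAT was in 12 of the 36 promoters of the 33 collagen genes that matched (33.3%, with 33.8% of all 32851 promoters), TATAAA in 5 (13.9%, with 12.4%), GGGCGG in 20 (55.6%, with 32.7%) and AGGTGTGA, a string found in T-box binding sites, in 0 (1.12% of all). These matches are descriptions of letters and not sites.

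Col5a1 and Col5a2 encode chains of type V collagen, which forms the core of type I fibrils. Col5a2 (A_51_P247883) gave 10, 10.64, 9.79 and 10.10 in Tbx5-/+ and 11.44, 10.38, 10.58 and 10.66 in wild-type. Pools 1, 6 and 7 were below every wild-type value and pool 5 lay among them, and the difference was -0.63 ± 0.28 (limma adjusted p 0.225). Without wild-type pool 1 it was -0.40. With the 75th percentile, after quantile normalization and with centred arrays it was -0.30, -0.33 and -0.31. Col5a1 (A_51_P414637) gave 12.58, 13.44, 12.74 and 12.98 against 13.20, 13.29, 13.32 and 13.56, where again only pool 5 overlapped, and it differed by -0.41 ± 0.22 (adjusted p 0.286).

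Col2a1, Col11a1 and Col11a2 encode the fibrillar chains best known from cartilage. Col2a1 (A_51_P317141) gave 13.41, 13.67, 12.04 and 13.32 in Tbx5-/+ and 12.85, 13.72, 13.35 and 13.43 in wild-type, so 3 values lay in the wild-type range and pool 6 below it. The difference was -0.23 ± 0.35 under VSN (adjusted p 0.707), 0.14 with the 75th percentile and 0.09 with centred arrays. Col11a1 (A_51_P459477) gave 11.08, 12.86, 12.42 and 12.56 against 10.89, 12.16, 11.60 and 11.92. Each Tbx5-/+ pool was above the wild-type pool of its number, by 0.19 to 0.83, and Col11a1 had the highest difference of the 33 genes, 0.59 ± 0.41 (adjusted p 0.379, and 0.0522 without Tbx5-/+ pool 1, where the difference was 0.97). Without wild-type pool 1 the Col11a1 difference was 0.34. Col11a2 (A_51_P264666) gave 8.17, 9.83, 9.27 and 9.43 against 7.95, 9.66, 9.15 and 9.34, with overlapping ranges, and differed by 0.15 ± 0.43 (adjusted p 0.851). The 2 notochord and floor plate markers tested of 4 listed, Foxa2 and Shh, had a summed level (log2) of 12.44 to 13.88 in Tbx5-/+ and 13.56 to 13.82 in wild-type. The 4 sclerotome markers tested of 5 listed, Meox1, Pax1, Pax9 and Sox9, summed to 12.57 to 13.91 and 12.55 to 14.16. This sum was lowest in pool 6 among the Tbx5-/+ pools and in pool 1 among the wild-type pools, as for Col2a1. The members differed, since in Tbx5-/+ Meox1 and Pax1 were lowest in pool 6 but Pax9 and Sox9 in pool 7. In wild-type pool 1 Meox1 was at its highest (11.02). The part of these markers in the collagen values was not tested.

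Col27a1 encodes another fibrillar chain with a role in cartilage. Its upstream probe (A_52_P129388) gave 7.22, 6.42, 6.36 and 5.90 in Tbx5-/+, where 2 of 4 arrays were well above background, and 7.15, 7.31, 7.33 and 7.64 in wild-type. Pool 1 alone lay in the wild-type range. The difference was -0.88 ± 0.28 (adjusted p 0.160 with all arrays, 0.0127 without Tbx5-/+ pool 1, where it was -1.13). The brightest probe (A_52_P480088, 4546 bases downstream) gave 6.50, 8.24, 7.58 and 8.16 against 7.22, 7.45, 8.02 and 7.52, and differed by 0.07 ± 0.37 with pools 5 and 7 above all wild-type values. The other fibrillar genes, Col3a1 (-0.14), Col24a1 (-0.14) and Col5a3 (-0.34), overlapped between groups, and all 3 were above 0 without Tbx5-/+ pool 1 (0.42, 0.16 and 0.01). Col3a1, the chain of type III collagen, gave 13.03 in Tbx5-/+ pool 1 and 15 to 15.4 in the other Tbx5-/+ pools, with 14.44 to 15.10 in wild-type.

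Of the type IV genes, 5 of 6 were tested, and under VSN all 5 had a difference of 0.00 or below, with a median of -0.59. With the 75th percentile 4 were below 0, and after quantile normalization and with centred arrays 3, with medians of -0.34, -0.37 and -0.27. Of all gene names, 61.1% were below 0 under VSN and 37.4%, 47.7% and 34.8% under these scalings. Col4a1 and Col4a2 encode the common basement membrane chains and lie head to head, with starts 21 bases apart on opposite strands of chromosome 8 in the RefSeq table. The brightest Col4a1 probe (A_51_P124254, chr8:11199009-11199068) gave 12.95, 12.77, 11.41 and 12.52 in Tbx5-/+ and 13.02, 13.43, 12.84 and 13.41 in wild-type. Only pool 1 reached the wild-type range and pool 6 was lowest. The difference was -0.76 ± 0.33 (adjusted p 0.223), or -0.43 without pool 6. The upstream probe gave -0.92 ± 0.41 (adjusted p 0.225), and -1.15 to -0.49 with a pool left out.

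The brightest Col4a2 probe (A_51_P491350, chr8:11448840-11448899) gave 12.60, 12.66, 10.45 and 12.08 in Tbx5-/+ and 12.78, 12.64, 12.45 and 12.74 in wild-type, so pools 1 and 5 lay in the wild-type range and pool 6 was 2 below its partner. The difference was -0.71 ± 0.44 (adjusted p 0.334), and it was -0.20 without pool 6 and -0.94 without pool 5. By brightest probe Col4a5 and Col4a6, neighbours on chromosome X, were lower in pools 1 and 6 than in pools 5 and 7 in Tbx5-/+ and higher in them in wild-type. Col4a5 (A_51_P216005) gave 6.60, 7.80, 6.86 and 7.83 against 8.18, 7.69, 8.04 and 7.55 (-0.59 ± 0.31, adjusted p 0.276, or -0.37 without Tbx5-/+ pool 1). Col4a6 (A_52_P516409) gave 10.94, 11.85, 10.70 and 11.71 against 12.09, 11.05, 11.58 and 10.48. On these probes Tbx5-/+ pools 5 and 7 were above their wild-type partners and pools 1 and 6 below, by 1.15 and 0.88 in Col4a6, so its difference of 0.00 ± 0.38 (adjusted p 0.999) averaged opposite values. The dimmer Col4a6 probes did not share this layout. For pools 1, 5, 6 and 7, A_51_P109326 differed by -0.66, 0.32, 0.06 and -0.17 and A_52_P447196 by -0.61, 0.65, -0.43 and -0.17. Xist, an X-linked transcript of female cells looked up after these values were seen, gave 10.98, 10.37, 10.43 and 10.56 against 11.05, 12.44, 12.22 and 13.10 on its brightest probe, all lower in Tbx5-/+ but in another order of pools, and its part in the values of Col4a5 and Col4a6 was not tested. Col4a4 differed by -0.31.

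Endothelial cells make type IV collagen. Of 8 endothelial markers, all tested, 4 were lower in at least 1 probe at an unadjusted p under 0.05 and 0 were higher (22.6% and 4.57% of all gene names). They were Kdr (-1.12), Tie1 (-0.95), Pecam1 (-0.89) and Flt1 on a dimmer probe, A_52_P307922 (-1.70), while the brightest Flt1 probe differed by -0.38. Kdr and the dimmer Flt1 probe passed with the block (adjusted p 0.0346 and 0.0414). On these 4 probes, which were picked for being lower, pool 6 was the lowest Tbx5-/+ pool, as it was for Col4a1 and Col4a2. By brightest probe 4 of the 8 markers were lowest in pool 1 and 4 in pool 6. On that probe Cdh5, Emcn and Esam differed by 0.14, 0.21 and 0.01, and Tek by -0.42. The summed level of the 8 markers was 14.18 to 14.61 in Tbx5-/+, lowest in pool 1, and 14.54 to 14.85 in wild-type. Their part in the type IV values was not tested.

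Type VI collagen needs the chains of Col6a1 and Col6a2 with a further chain. Col6a1 (A_51_P474496, chr10:76171899-76171958, minus strand) gave 7.13, 8.35, 7.11 and 7.93 in Tbx5-/+ and 8.26, 8.92, 8.38 and 8.84 in wild-type. Each pool was below its wild-type partner, by 0.57 to 1.27, and only pool 5 overlapped the wild-type range. The means were 7.63 ± 0.62 and 8.60 ± 0.33 (SD, n = 4 each). The difference was -0.97 ± 0.31, 1.96-fold lower, with an adjusted p of 0.169 in limma and 0.0346 with the block. Col6a2 (A_51_P279639, chr10:76058931-76058990) gave 7.65, 8.41, 7.95 and 7.69 against 8.07, 8.66, 8.67 and 8.72. Each pool was again below its partner, by 0.25 to 1.03, and the difference was -0.60 ± 0.24 (adjusted p 0.206). A second Col6a2 probe, annotated to a cDNA clone, differed by -0.24. Col6a3 was well above background on none of the 8 arrays with either probe, and Col29a1, now named Col6a5, on none with its 1 probe.

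**Figure D2:**
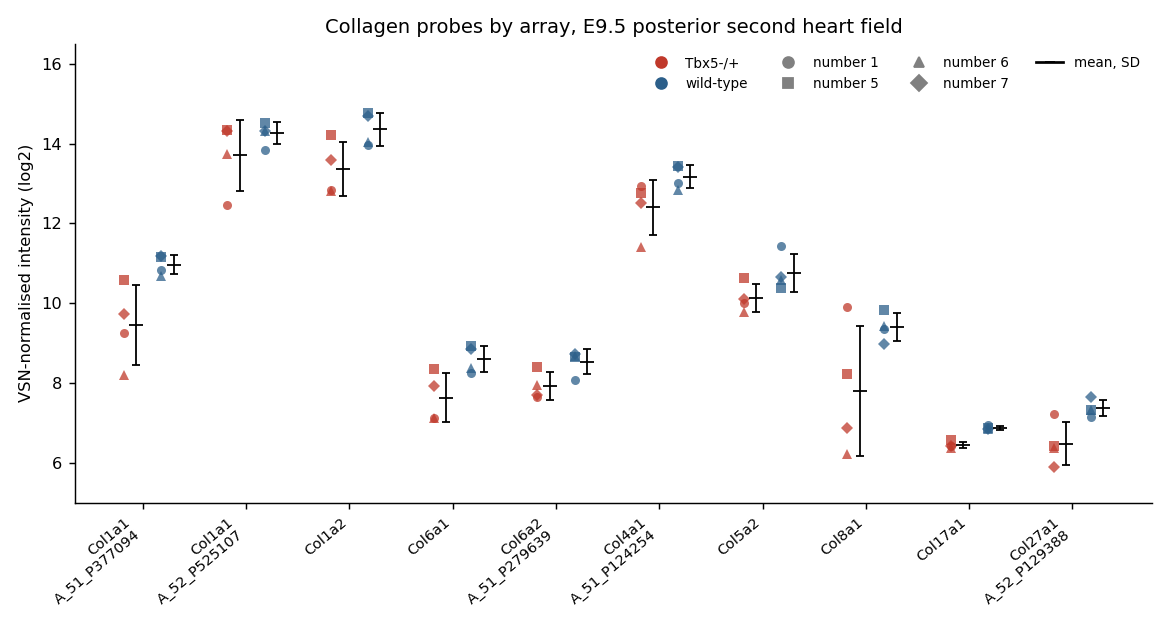
VSN-normalised intensity (log2, y axis) of the collagen probes at an unadjusted p under 0.05, with the brightest Col1a1 probe for comparison and the brighter of both Col4a1 probes, in 4 Tbx5-/+ (red) and 4 wild-type (blue) pools; the marker shape gives the embryo number and black bars are means ± SD. The groups do not overlap for Col1a1 probe A_51_P377094 and Col17a1 and overlap by at least 1 pool for the others.

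Among short-chain and anchoring collagens, Col8a1 and Col8a2 encode the chains of type VIII collagen, a network collagen of vessel walls and the cornea. Col8a1 (A_52_P282058, chr16:57627033-57627092, minus strand) gave 9.91, 8.22, 6.22 and 6.87 in Tbx5-/+, well above background on 3 of 4 arrays, and 9.34, 9.83, 9.44 and 8.97 in wild-type. Pool 1 was above every wild-type value and the other pools below all of them. Its difference, -1.59 ± 0.67, was the lowest of the 33 genes (3-fold lower, adjusted p 0.217), and without pool 1 it was -2.29 (adjusted p 0.0163). Col8a2 (A_52_P302544) gave 8.54, 10.56, 9.98 and 10.32 against 9.07, 11.02, 10.49 and 10.91. The ranges overlapped, yet each pool was below its partner by 0.45 to 0.60, and the difference of -0.52 ± 0.52 had an adjusted p of 0.547 in limma and 0.0697 with the block. It was -0.09 without Tbx5-/+ pool 1 and -0.95 without wild-type pool 1, the lowest pools of their groups. Col7a1, the anchoring fibril chain, differed by 0.12, or 0.43 without Tbx5-/+ pool 1.

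Of 9 FACIT genes 7 were tested. Under VSN 6 of them were below 0, with the 75th percentile and after quantile normalization 4, and with centred arrays 3, against the shares of all gene names given above, and under VSN 0 reached an unadjusted p under 0.05. Type IX collagen, bound to cartilage fibrils, was measured through all of its chains. Col9a1 (A_51_P231036) gave 11.23, 11.23, 9.57 and 10.81 in Tbx5-/+ and 11.13, 12.15, 10.96 and 11.77 in wild-type (-0.79 ± 0.41, adjusted p 0.265). Col9a2 (A_51_P401504) gave 10.57, 8.96, 7.87 and 8.71 against 8.68, 9.75, 9.50 and 9.34 (-0.29 ± 0.50, adjusted p 0.737), and Col9a3 (A_52_P197963) gave 8.06, 7.13, 5.92 and 6.67 against 7.20, 7.84, 7.23 and 7.34 (-0.46 ± 0.40, adjusted p 0.489). All 3 chains had the same layout, with pools 5, 6 and 7 below their partners and pool 1 above its partner, by 0.10, 1.90 and 0.86. Without pool 1 the differences were -0.97, -0.80 and -0.83 (adjusted p 0.125, 0.101 and 0.0759), without pool 6 they were -0.41, 0.10 and -0.11, and the Col9a2 difference was 0.03 with centred arrays and after quantile normalization.

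Col12a1 differed by -1.08 ± 0.49 (adjusted p 0.232), or -0.56 without pool 6, with 5.66 in Tbx5-/+ pool 6 and 7.72 to 7.82 in the other Tbx5-/+ pools against 7.47 to 8.76 in wild-type. Col14a1, Col16a1 and Col22a1 differed by -0.07, -0.16 and 0.06, and by 0.05, 0.28 and 0.37 without Tbx5-/+ pool 1. Among transmembrane collagens, Col17a1 (A_51_P358344, chr19:47720894-47720953, minus strand), a chain of epithelial hemidesmosomes, gave 6.42, 6.56, 6.37 and 6.43 in Tbx5-/+ and 6.95, 6.86, 6.84 and 6.85 in wild-type. The groups did not overlap, although these are values near background, well above it on 1 of 4 Tbx5-/+ arrays and 4 of 4 wild-type arrays. The difference was -0.43 ± 0.16 (adjusted p 0.198) and -0.10 with centred arrays. Col13a1 and Col23a1 differed by 0.42 and -0.13 on their brightest probes, and the multiplexins Col15a1 and Col18a1, which sit in basement membranes, by -0.08 and 0.05. The brightest Col13a1 probe differed by 0.18 without Tbx5-/+ pool 6 and by 0.71 without Tbx5-/+ pool 1. In that last fit its upstream probe went the other way (-0.73).

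**Figure D3:**
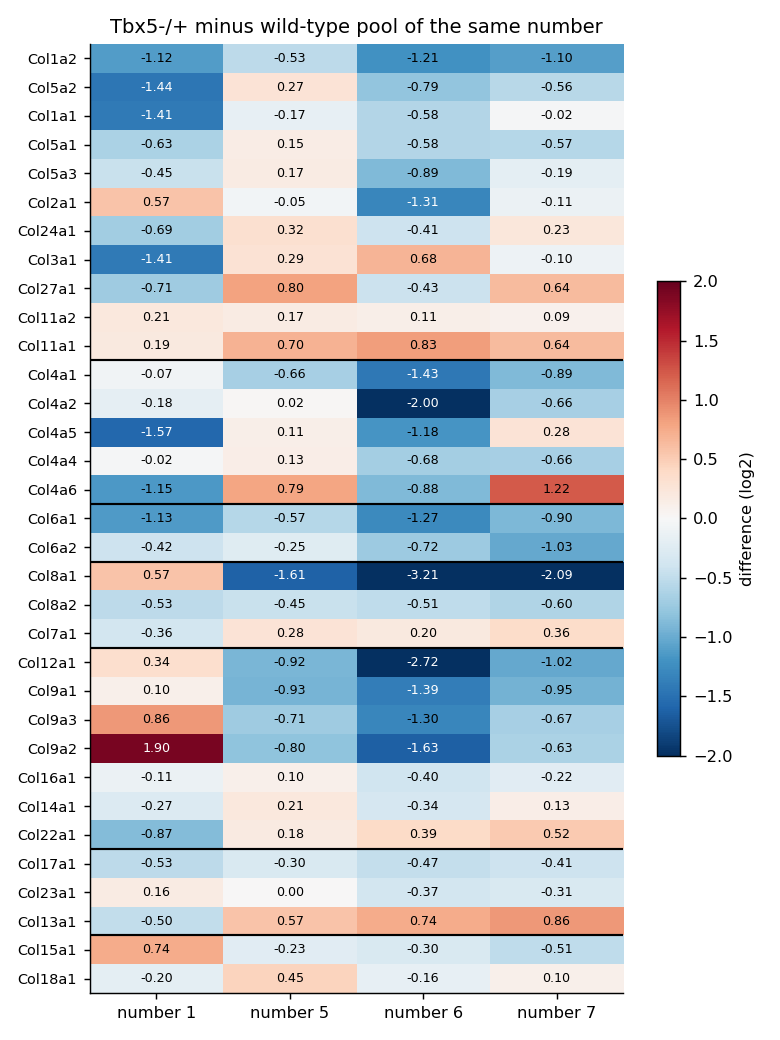
Difference (log2, colour and printed value) between the Tbx5-/+ and the wild-type pool of the same embryo number (columns) for the brightest tested probe of each of 33 collagen genes (rows, with lines between classes). Blue is lower in Tbx5-/+; Col1a2, Col6a1, Col6a2, Col8a2 and Col17a1 are blue in every column, while Col8a1 and the Col9 chains change sign between number 1 and the others.

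In pools of the same number, 7 of 33 collagen genes were lower in all 4 comparisons by the brightest probe (21.2%, with 32.1% of all gene names): Col1a1, Col1a2, Col4a1, Col6a1, Col6a2, Col8a2 and Col17a1. Tbx5-/+ pool 1 was above its partner in Col8a1, Col2a1, Col12a1, Col15a1 and all Col9 chains, where pools 5, 6 and 7 were below theirs.

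Whether chains that assemble together differed by unequal amounts was tested within each array, as the difference between the probes of 2 chains. The exact two-sided permutation test over 70 assignments cannot go below p 0.0286, so with 10 pairs a single pair could reach an adjusted p of 0.286 at best and 6 pairs would have to reach the smallest p for any to pass 0.05. In this design 0 of 10 pairs passed, adjusted or not. With pools paired by number the exact test over 16 assignments of sign cannot go below p 0.125. The smallest p belonged to Col11a1 and Col11a2, whose difference was larger in Tbx5-/+ by 0.44 (3.06 ± 0.11 against 2.62 ± 0.22, SD, n = 4 each, exact permutation p 0.0571, adjusted 0.429). Within numbers it was larger in 3 of 4 (exact p 0.25). Col4a5 minus Col4a6 differed by -0.59 (exact p 0.0857, adjusted 0.429) and was lower in all 4 numbers, by 0.30 to 0.94 (exact paired p 0.125, the smallest possible, adjusted 0.417). For the type I chains the change was 0.45 (exact p 0.257), a value of -0.05 when each gene was the mean over its probes, and for Col6a1 minus Col6a2 it was -0.36 (exact p 0.229). Col4a1 minus Col4a2, the pair with nearly shared starts, changed by -0.06 (0.46 ± 0.36 against 0.52 ± 0.25, SD, n = 4 each, exact permutation p 0.857). Type V chains changed by 0.22, type VIII by -1.07 (-2.20 without Tbx5-/+ pool 1), Col9a1 minus Col9a2 by -0.50, Col9a2 minus Col9a3 by 0.17 and Col2a1 minus Col11a1 by -0.82, each with an exact p of 0.2 or above.

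Several genes gave unlike differences from separate probes, a comparison made after the values were seen. In 9 collagen genes with more than 1 tested probe on RefSeq transcripts, the probe farther upstream had the lower difference in 8 (88.9%, with 68.9% of 3672 gene names). In all 9 the upstream probe was also dimmer than the downstream probe, so position and brightness cannot be told apart here. The median of upstream minus downstream was -0.40 in collagen genes and -0.19 in all gene names. It was -0.98 in Col1a1, -0.95 in Col27a1, -0.94 in Col13a1, -0.84 in Col18a1 and -0.40 in Col23a1, but -0.26 in Col4a2, -0.16 in Col4a1, -0.14 in Col4a6 and 0.00 in Col2a1, whose probes start 20 bases apart.

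By array, the median gap between upstream and downstream probe in collagen genes was -1.48, -1.83, -2.66 and -2.26 in Tbx5-/+ pools 1, 5, 6 and 7 and -1.54, -1.57, -1.63 and -1.50 in wild-type. Over all gene names it was -1.30, -1.64, -1.80 and -1.73 against -1.24, -1.39, -1.48 and -1.38. Tbx5-/+ pools 5, 6 and 7 had the widest gaps in both sets and pool 1 lay with wild-type. The collagen gap is computed from the upstream probes described above. The Col27a1 upstream probe A_52_P129388 was likewise in the wild-type range in pool 1 and below it in pools 5, 6 and 7. The Col1a1 upstream probe A_51_P377094 was lowest in pool 6 (8.20), low in pool 1 too (9.26) and highest of the Tbx5-/+ pools in pool 5 (10.59). The gap of Col1a1 itself was -3.19, -3.76, -5.55 and -4.57 in Tbx5-/+ pools 1, 5, 6 and 7 and -3.02, -3.35, -3.63 and -3.13 in wild-type. The part of the gap in these values was not tested.

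**Figure D4:**
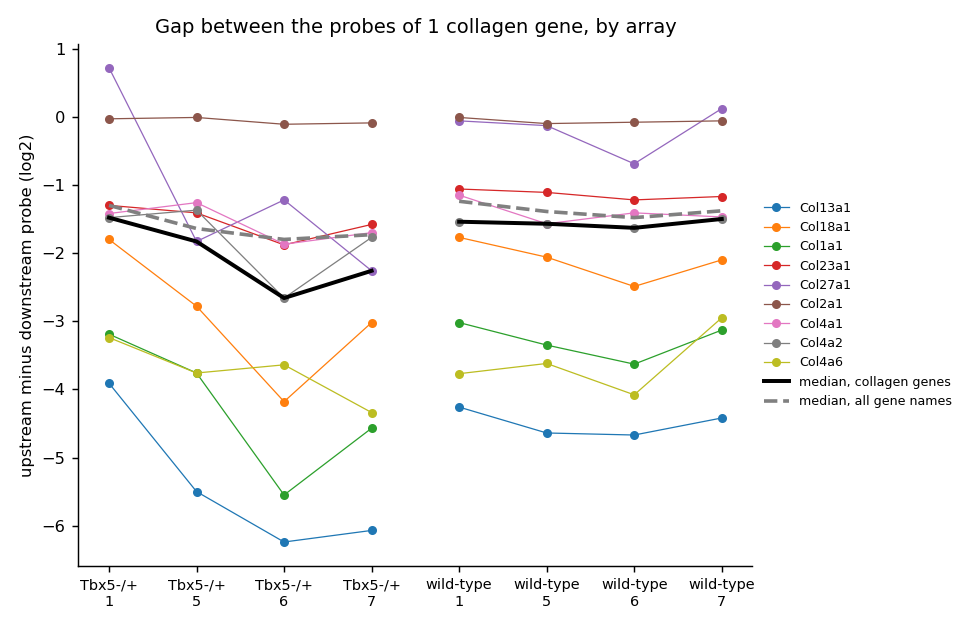
Upstream minus downstream probe (log2, y axis) of 9 collagen genes on each array (x axis, 4 Tbx5-/+ and 4 wild-type pools); thin lines are genes, the black line their median and the dashed line the median of all 3672 gene names. The collagen median runs from -1.48 to -2.66 in Tbx5-/+ and from -1.50 to -1.63 in wild-type.

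Genes that modify, cleave, bind or degrade collagen were taken from 5 lists of 63 genes, of which 58 are on the array and 43 were tested. None passed an adjusted p of 0.05 in limma (0 of 43), while at an unadjusted p under 0.05, 15 were lower in at least 1 probe and 1 was higher (22.6% and 4.57% of all gene names, the shares that also stand beside the counts of each list below). With the block 11 passed, all lower (13.5% of all gene names). Leaving out Tbx5-/+ pool 1 gave 12, of which 11 were lower and 2 higher in at least 1 probe (15% and 9.33%). The median difference was -0.37.

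In chain modification and folding, 6 of 17 genes tested were lower at that level and 1 was higher. Lepre1, a prolyl 3-hydroxylase of collagen chains, differed by -1.13 (adjusted p 0.168, with the block 0.0346, without Tbx5-/+ pool 1 0.0368). Plod3, a lysyl hydroxylase, differed by -0.67 and Mia3, which loads collagen into secretory vesicles, by -0.46. Serpinh1, the collagen chaperone, gave 16.17, 17.07, 17.48 and 17.15 against 16.34, 16.21, 16.41 and 16.42 and was higher by 0.62 (adjusted p 0.224, and 0.0163 without Tbx5-/+ pool 1).

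In collagen degradation 3 of 5 genes tested were lower. Mmp14, the membrane-bound collagenase, gave 12.70, 12.13, 10.60 and 11.13 in Tbx5-/+ and 13.58, 14.38, 13.61 and 14.44 in wild-type on its brightest probe. Its groups did not overlap and its difference was -2.36 ± 0.44. With all pools its adjusted p was 0.0335 with the block and 0.0919 without it, and without Tbx5-/+ pool 1 and the block it was 0.0072. Timp2, an inhibitor of matrix metalloproteinases, differed by -1.53 ± 0.37 without overlap (adjusted p 0.102, with the block 0.0335, without Tbx5-/+ pool 1 0.01965).

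Of the fibril-binding proteins, 3 of 9 were lower. Sparc, a collagen-binding matrix protein, differed by -1.09 on probe A_52_P101852 (adjusted p 0.0958, with the block 0.0335, without Tbx5-/+ pool 1 0.0230). Its brightest probe differed by 0.23, and by 0.62 without Tbx5-/+ pool 1 (adjusted p 0.0424). Nid2, which links laminin and type IV collagen, differed by -0.57. Of the genes for propeptide removal and cross-linking, 2 of 8 were lower. Loxl1, a lysyl oxidase, differed by -0.98 (adjusted p 0.124, with the block 0.0367, without Tbx5-/+ pool 1 0.0528). Adamts3, a procollagen protease, had all 4 Tbx5-/+ values above wild-type with a difference of 0.25 (adjusted p 0.353). Of the collagen receptors 1 of 4 was lower, Mrc2, an endocytic collagen receptor (-1, adjusted p 0.228). These named genes kept their direction under the 4 other scalings.

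The remaining markers were summed for each array. Of 8 posterior second heart field markers 5 were lower at an unadjusted p under 0.05 (22.6% of all gene names): Tbx5 itself, Foxf1a (-1.59), Gata4 (-1.37), Osr1 (-1.34) and Hoxb1 (-1.04). The same 5 passed with the block (adjusted p 0.0335 to 0.0347), and the median of the 8 was -1.19. Their summed levels were 13.85 to 15.11 in Tbx5-/+ and 14.44 to 15.46 in wild-type, and their brightest member, Wnt2, differed by 0.06. Cardiomyocyte markers summed to 18.05 to 19.17 and 18.30 to 18.89, smooth muscle markers to 16.56 to 17.42 and 16.73 to 17.10, foregut endoderm markers to 16.61 to 16.97 and 16.33 to 17.52, neural tube markers to 14.05 to 14.57 and 13.49 to 15.08, neural crest markers to 10.98 to 11.63 and 11.06 to 11.73, and primitive erythrocyte markers to 16.42 to 19.03 and 16.51 to 18.38. Pool 1 was the lowest of its group in erythrocyte markers in both genotypes. The part of these cells in the collagen values was not tested.

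The 8 genes not tested were Col4a3, Col6a3, Col10a1, Col19a1, Col20a1, Col25a1, Col28a1 and Col29a1. Col20a1 was well above background on 2 of 4 Tbx5-/+ and 3 of 4 wild-type arrays, Col19a1 on at most 1 and 2, and Col25a1 on at most 1 and 2. Col4a3, Col6a3, Col10a1, Col28a1 and Col29a1 were well above background on no array.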

How the data were processed

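RNA of 4 Tbx5-/+ and 4 wild-type pSHF pools was measured on 1-colour Agilent mouse arrays with 60-base probes. The scanner files deposited by the authors hold intensity values from Feature Extraction 10.5.1.1, a mean signal, its local background and a processed signal for each spot, on a linear scale. Log2 values that the authors had corrected for background and put through VSN were deposited as a table, whose r with the values computed here was at least 0.9999 on every array.

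The median background was subtracted from the mean signal, 1115 outlier spots were left out, repeated spots were averaged, and VSN was programmed in R 4.3.3 with 90% of probes kept in each of 7 iterations. Scripts were tested on simulated data. The filter kept 20028 probes, each well above background on every array of 1 group or both. Groups were compared with limma 3.58.1 (lmFit, eBayes, two-sided, no covariate) with Benjamini-Hochberg adjustment over those probes and a threshold of 0.05. The number of arrays limits the precision. The members and lists were chosen with earlier results of these data known.

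A gene was represented by its brightest tested probe. Values are given for collagen genes at an unadjusted p under 0.05, without overlap or in a chain pair. Of each list of collagen modifiers and receptors, up to 4 genes without overlap and with the smallest p are named. Serpinh1, whose groups overlapped, was named outside that rule for being higher at an unadjusted p under 0.05, and the cell markers were named outside it too. Deviations from the group means correlated between pools of the same number (0.438, 0.400, 0.593 and 0.137 for numbers 1, 5, 6 and 7). Tbx5-/+ pool 7, however, correlated more with wild-type pool 6 (0.372) than with wild-type pool 7, so the pairing is less clear for that number. The numbers, taken from the sample titles, were treated as pairs in a fit with the number as a block. Numbers 1 and 5 shared 1 slide and 6 and 7 another, with both groups on each. Alternatives changed the scaling, the filter on dim probes, the block (number or slide), array weights, the probe summary and the pools included. Of the 41 genes, 33 matched the RefSeq promoter table (GRCm38.p6), Col29a1 as Col6a5. Probe coordinates are mm9, as deposited.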

Additional observations from a re-analysis of the deposited data

Results flagged for a closer look

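In groups of 4 pools, a value was singled out when its gap to the nearest other value, divided by the range of its group, was above 0.829. Of 74 groups examined 8 were singled out, and chance gives about 1 in 20. Tbx5-/+ pool 6 was low in Col12a1 (ratio 0.954, 5.66 against 7.72 to 7.82). Tbx5-/+ pool 1 was low in Col22a1 (0.928, 10.81 against 12.01 to 12.10) and in Col3a1 (0.829, 13.03 against 15 to 15.4). Wild-type pool 1 was low in Col16a1 (0.897, 10.63 against 12.35 to 12.55) and in Col6a2 (0.902, 8.07 against 8.66 to 8.72), and high in Col17a1 (0.845, 6.95 against 6.84 to 6.86). Wild-type pool 6 was low in Col4a1 on probe A_52_P518827 (0.852, 11.43 against 11.86 to 11.94) and in Tbx5 (0.921, 10.42 against 11.47 to 11.56).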

How the results depend on the processing

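With pools paired by number (the replicate block), 3 collagen genes passed an adjusted p of 0.05 and 11 genes of the 5 lists of collagen modifiers and receptors did, against 0 and 0 without it, and among the named probes it changed only the calls of Col1a1, Col1a2, Col6a1, Tbx5, Kdr, Flt1 on its dimmer probe, 5 posterior second heart field markers with Tbx5 among them, and the other listed genes given with a blocked p under 0.05. It could change no call of the 10 chain pairs, since their exact test within numbers cannot go below p 0.125. Array weights gave 19 and 24, where 57% of all gene names passed. Leaving out 1 pool gave 0 to 3 collagen genes and 0 to 12 listed genes, all of the calls without Tbx5-/+ pool 1. The count of collagen genes with all Tbx5-/+ values above wild-type was 0, and 1 with the 75th percentile (11.4% of all gene names), 1 with centred arrays (10.2%), 1 with no filter on dim probes (1.87%), 4 within slide 2 (30.6%) and 0 to 3 with a pool left out (3, with 18.8%, without Tbx5-/+ pool 1). Below wild-type it was 1, and 0 with centred arrays (1.94%), 0 for probes well above background on all 8 arrays (7.35%), 2 within slide 1 (24.2%), 19 within slide 2 (39.5%) and 1 to 6 with a pool left out (6, with 12.4%, without Tbx5-/+ pool 5). A slide holds 2 arrays of each group, so groups that do not overlap are common there. The median collagen difference was -0.31, and 0.01 with centred arrays and -0.41 to -0.19 with a pool left out.

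Some differences changed sign, and the cause was not tested. With each gene as the mean over its probes, Col1a1 minus Col1a2 was -0.05 and Col27a1 -0.41. Within slide 2, Col4a1 minus Col4a2 was 0.17 and Col9a2 minus Col9a3 -0.14, and within slide 1 Col2a1 was 0.26, Col9a2 0.55 and Col9a3 0.07. Quantile normalization gave -0.02 for Col5a1 minus Col5a2 and 0.03 for Col9a2, the 75th percentile gave 0.14 for Col2a1, centred arrays gave 0.09 for Col2a1 and 0.03 for Col9a2, and array weights gave 0.07 for Col4a5. With a pool left out the ranges were -0.22 to 0.06 for Col4a1 minus Col4a2, -0.05 to 0.33 for Col5a1 minus Col5a2, -0.21 to 0.48 for Col11a2, -0.14 to 0.44 for Col27a1, -0.41 to 0.13 for Col2a1 and -0.80 to 0.10 for Col9a2. The slide as a block changed no collagen call. Dim probes limit Col17a1, Col27a1 and the 8 genes not tested.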
